A study of Anopheles gambiae with 6 samples.

Results

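The transcripts described here were bright in the larval salivary gland of the malaria mosquito Anopheles gambiae and just as bright in the whole larva, a candidate housekeeping set. A probe set, the group of array probes that reports 1 transcript, was a member when its identifier began with Ag., its mean log2 value was at least 10 on the 3 gland arrays and on the 3 whole-larva arrays, and the 2 means differed by less than 0.5 (less than 1.41-fold). Of 16884 Anopheles probe sets 218 met this rule, or 1.29%. They were 218 of the 322 probe sets with both means at 10 or more. The other 104 bright probe sets differed by more, 57 of them higher in gland and 47 lower. The group means chose the members, so that levels and differences between the tissues are given as a description, without a test.

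RNA came from 4th instar larvae of strain G3, reared on yeast and fish flakes, and each of 6 Affymetrix arrays carried 1 pool described in the labels as a biological repeat. The 3 gland pools held salivary glands dissected from 50 larvae each, and the 3 whole-larva pools held 200 animals each, gland included. No treatment separated the groups. No member could be given a gene name, since 0 of the 218 identifiers matched the 15165 genes of the reference table, so members are called by their identifiers, which name a chromosome arm (or UNKN for no placed arm), a number, a transcript variant and, for most, the coding sequence (CDS) or the untranslated region (UTR). The number of arrays limits the precision of every value.

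Housekeeping transcripts encode parts that nearly every cell needs, such as ribosomal proteins, translation factors, cytoskeletal proteins and enzymes of energy metabolism, and the most abundant of them are used as references for measuring other genes. A good reference keeps the same level across the tissues compared and varies little between replicates. Salivary gland cells of fly and mosquito larvae are large secretory cells with polytene chromosomes, so their RNA can differ from that of the whole animal, and a transcript that is steady elsewhere need not be steady there. In pooled tissue, fewer cells of a type and less RNA per cell cannot be told apart.

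Members' differences were small by choice and were known to different precision. The median gland minus whole-larva difference was 0.03 on the log2 scale, with 121 members higher in gland and 97 lower. In limma's fit over all 16884 Anopheles probe sets the standard error of a member's difference had a median of 0.220 and ran from 0.132 to 2.07. The 95% interval lay within a 2-fold difference in either direction for 179 of 218 members (82.1%), against 66.9% of all Anopheles probe sets. The rule kept small differences on these same arrays, so members' intervals lie near 0 by choice and need not cover at 95%. For the other members the 6 arrays did not fix the difference to within 2-fold. Across all Anopheles probe sets 7.38% were called, at a limma adjusted p under 0.01 with a 2-fold difference, and 0 members could be by the rule. The groups did not overlap for 22 members, against 41.7% of all Anopheles probe sets. As the rule used this contrast, none of these counts, that of the intervals included, is a result about the members.

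The limits of the rule cut through a continuum. At the difference limit, Ag.3R.244.0_CDS_at was just inside at -0.50 and Ag.2L.191.1_CDS_a_at at 0.49, and Ag.2R.353.0_UTR_at was just outside at 0.50 and Ag.X.67.0_CDS_a_at at -0.50 (gland minus whole larva, log2). At the gland limit, the lowest members were Ag.3R.245.0_CDS_at at 10.06 and Ag.2L.182.11_CDS_a_at at 10.08, and Ag.2L.283.0_CDS_s_at and Ag.2L.217.0_CDS_a_at missed it at 9.99 each. At the whole-larva limit, Ag.2R.1008.0_CDS_a_at at 10.03 and Ag.2L.234.0_CDS_s_at at 10.04 were inside, and Ag.3L.245.0_UTR_a_at at 9.98 and Ag.3L.236.0_UTR_s_at at 9.96 outside. All these gaps are far below the spread between replicates. Choosing again with 1 array left out gave 203 to 218 probe sets, and 158 of the 218 members met the rule whichever array was left out.

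**Figure D1:**
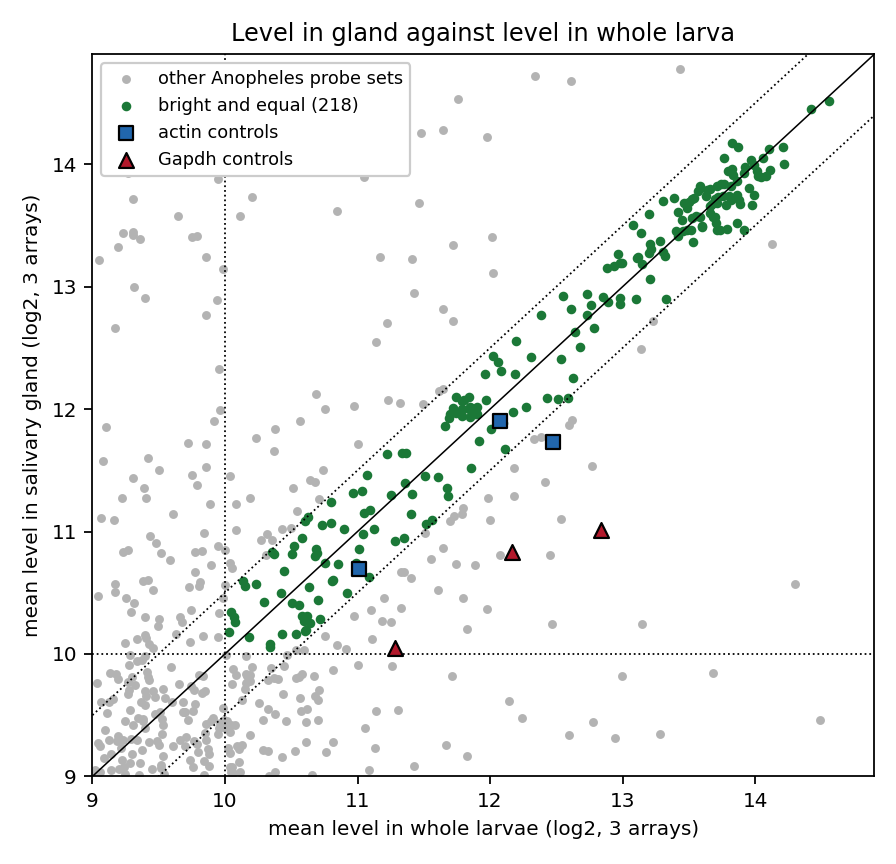
Mean level in gland (vertical axis, log2) against mean level in whole larvae (horizontal axis, log2) for Anopheles probe sets with both means at 9 or more. The 218 bright and equal ones (green) lie between the dotted limits of the rule and crowd above 13, and the 3 Gapdh controls (triangles) lie below the band.

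Members fell into a crowded top and a scattered lower range. Their mean level over the 6 arrays ran from 10.11 to 14.54 with a median of 12.52, and 61 of them lay between 13.5 and 14. A split at 13, chosen after the values were seen, put 96 members in the top range and 122 below it. Of the bright probe sets between 13.5 and 14, 61 of 64 met the difference limit, whereas between 11 and 11.5 it was 20 of 47 (42.6%). The share did not simply follow level, since it was 22 of 30 (73.3%) in the lowest 0.5 log2 units. The brightest Anopheles value on any array lay between 14.55 and 14.85, so the top members sat close to the largest values on the arrays. Whether signal near that upper end compresses differences was not tested.

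The steadiest member over all 6 arrays was Ag.UNKN.1841.0_CDS_s_at. It measured 14.17, 14.16 and 14.10 in gland and 14.29, 14.13 and 14.20 in whole larvae. The tissues overlapped, and all 6 values lay within 0.193. Ag.2R.15.0_CDS_x_at, at a lower level, was nearly as steady, with 12.86, 12.87 and 12.89 in gland and 13.01, 12.80 and 12.85 in whole larvae. Its gland values lay inside the range of its whole-larva values. Ag.X.68.6_a_at measured 12.28, 12.37 and 12.21 in gland and 12.25, 12.16 and 12.15 in whole larvae, and spanned 0.217. It was one of 12 members on the X chromosome.

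Ag.2R.317.0_CDS_a_at measured 14.01, 13.93 and 13.94 in gland and 13.88, 13.77 and 13.83 in whole larvae, so that every gland array was the higher one, by 0.13 on average. This member had the smallest pooled within-tissue SD of all members, 0.0511. Ag.2L.2855.0_s_at measured 14.53, 14.57 and 14.47 in gland and 14.70, 14.45 and 14.53 in whole larvae. It was at once the brightest member and the fifth steadiest. The next 5 by this order were Ag.2L.154.0_CDS_s_at, Ag.2L.6.0_CDS_at, Ag.3R.171.0_CDS_at, Ag.3L.117.0_CDS_a_at and Ag.2R.286.0_CDS_at, at mean levels from 13.73 to 13.86 and with ranges of 0.266 to 0.291 over the 6 arrays. Of the 10 steadiest, 8 lay in the top range, and they came from 5 arms and the unplaced class.

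**Figure D2:**
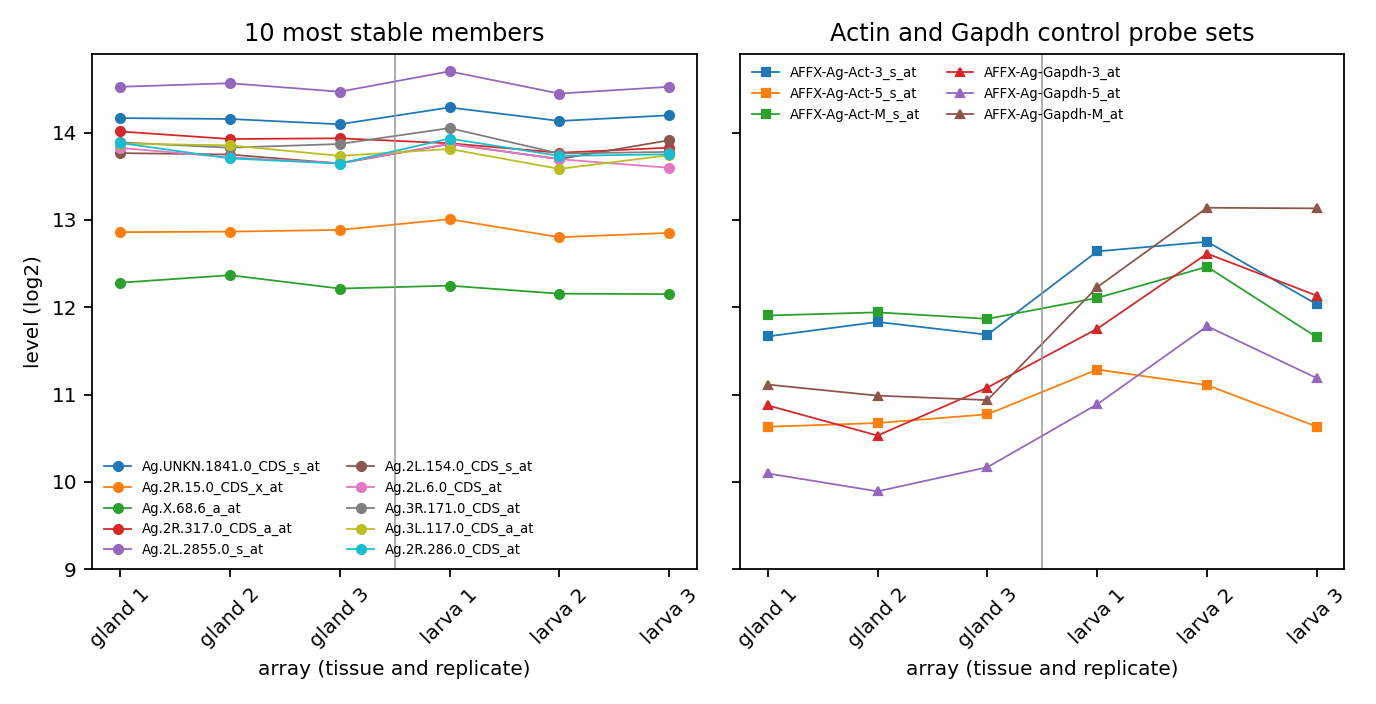
Level on each array (log2) for the 10 steadiest members (left) and the 6 actin and Gapdh control probe sets (right), 1 line per probe set, gland arrays left of the grey line. The members run nearly flat, and the Gapdh lines step up from gland to whole larva.

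Among the brightest members, Ag.3R.165.0_UTR_a_at measured 14.59, 14.50 and 14.25 in gland and 14.48, 14.20 and 14.59 in whole larvae. Gland replicate 3 and whole-larva replicate 2 were the low arrays of their tissues. Ag.3R.155.0_CDS_s_at shared the low whole-larva array, with 14.40, 13.71 and 14.21 there against 14.17, 14.14 and 14.07 in gland. Ag.3R.168.0_CDS_at measured 14.11, 14.13 and 13.76 in gland and 14.31, 14.14 and 14.19 in whole larvae. Here gland replicate 3 stood below the other 5 arrays.

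At the other end stood members that met the rule only on average. Ag.2R.2454.0_CDS_at measured 9.37, 10.70 and 12.89 in gland and 5.73, 13.91 and 13.48 in whole larvae. Its 6 values spanned 8.18 log2 units while its means differed by 0.06, and the 95% interval of that difference ran from -4.88 to 4.76. Ag.2L.2903.0_at measured 10.88, 10.09 and 9.54 in gland and 11.01, 11.34 and 8.94 in whole larvae. Neither tissue gave these probe sets close replicates. Ag.3L.134.0_CDS_s_at was steady in whole larvae, at 10.84, 10.59 and 10.82, but fell on 1 gland array, with 11.75, 11.32 and 9.15. Ag.2L.313.0_CDS_at (11.32, 11.22 and 9.33 in gland, 11.46, 10.14 and 11.67 in whole larvae) and Ag.2L.266.0_CDS_at (11.01, 10.58 and 8.90, then 10.92, 9.59 and 11.10) were low on that gland array and on whole-larva replicate 2. Ag.2R.2454.0_CDS_at still met the rule without gland replicate 2, but not without any other single array.

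The spread between replicates, which the rule did not use, lay in members between that of the other bright probe sets and that of the whole array. The pooled within-tissue SD had a median of 0.257 in members, 0.290 in the 104 bright probe sets with larger differences and 0.231 in all Anopheles probe sets. Members had a median level of 12.52 and the other bright ones 11.41, so these medians compare sets of unlike level. Within the members the SD fell with level, from a median of 0.398 in the lowest 0.5 log2 units of the range to 0.156 between 13.5 and 14. From 10 to 11.5, in steps of 0.5, members were the less steady, with medians of 0.398, 0.375 and 0.355. All bright probe sets, members included, had 0.322, 0.303 and 0.308 there. Above 11.5 the medians lay close, such as 0.306 in members and 0.321 in all bright ones between 11.5 and 12. The 96 top members had a median of 0.165 and the 122 lower ones 0.327. As in the series as a whole, whole-larva replicates spread more than gland replicates, with median SDs of 0.276 and 0.184 and the larger SD in whole larvae for 71.1% of members, against 74.6% of all Anopheles probe sets. Of the 96 top members 91 (94.8%) met the rule whichever array was left out, and of the 122 lower ones 67 (54.9%) did.

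**Figure D3:**
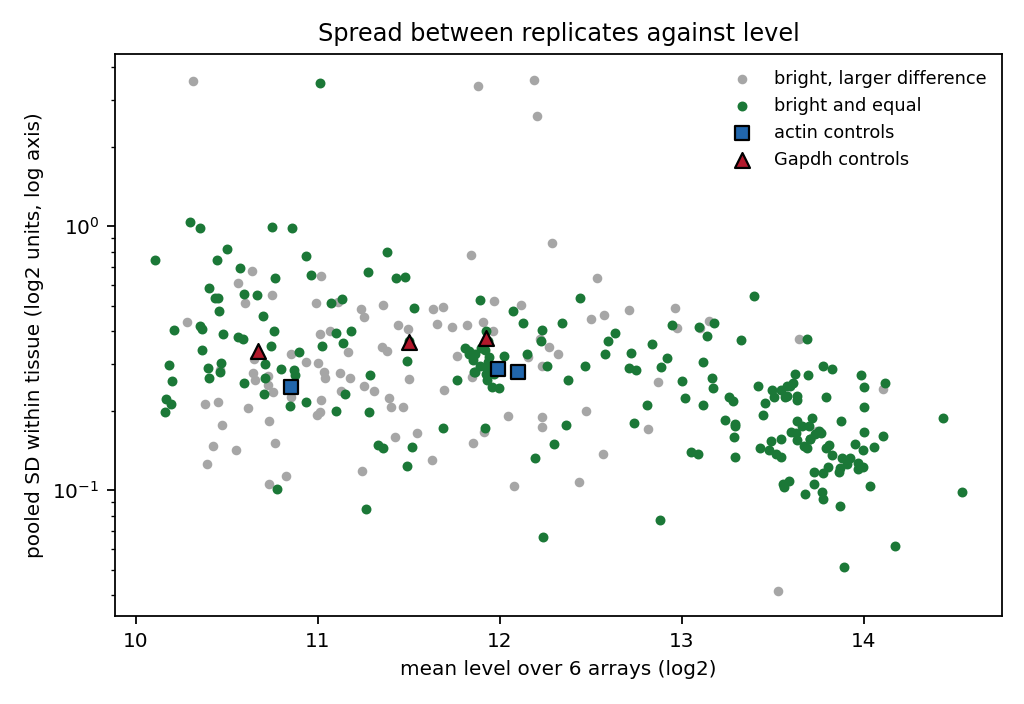
Pooled SD within tissue (log2 units, on a log axis) against mean level over 6 arrays for the probe sets bright in both tissues, with the actin and Gapdh controls. Spread falls above level 13, and the controls, at 0.245 to 0.375, lie among members of similar level.

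Many members were low together on the same 2 arrays, above all those in the top range. In gland, the lowest value was on replicate 3 for 171 of 218 members (78.4%), against 38.8% of all Anopheles probe sets and 35.6% of the other bright ones. In whole larvae, it was on replicate 2 for 134 members (61.5%), against 35.8% and 23.1%. Lowest on both arrays were 113 members (51.8%), against 15.6% of all Anopheles probe sets. In the top range the shares for gland replicate 3 and whole-larva replicate 2 were 86.5% and 88.5%, and 73 of those 96 members (76.0%) were lowest on both. Below level 13 they were 72.1% and 40.2%, with 35.2% lowest on whole-larva replicate 3, and 40 of those 122 members (32.8%) were lowest on both. The shift was modest for most: the median deviation from a member's own tissue mean was 0.14 on gland replicate 1, 0.02 on replicate 2 and -0.16 on replicate 3, and 0.14, -0.16 and 0.03 on whole-larva replicates 1, 2 and 3. On gland replicate 3 25 members lay more than 0.5 below their gland mean (11.5%, against 1.77% of all Anopheles probe sets), and 20 of these had their lowest whole-larva value on replicate 2. Over the 218 members, deviations on gland replicate 3 and whole-larva replicate 2 had a Pearson's r of 0.54, and 0.39 without Ag.2R.2454.0_CDS_at, against 0.19 over all Anopheles probe sets. This r is across probe sets, which share arrays and are not independent.

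Other measures of the same arrays moved only in part with the members. The hybridization spikes bioB, bioC, bioD and cre come from no mosquito RNA. The 9 of their probe sets with names in AFFX-r2 also had their lowest whole-larva value on replicate 2. The mean of cre was 13.44, 12.40 and 13.19 and that of bioD 11.51, 10.17 and 11.29 on whole-larva replicates 1, 2 and 3. On gland replicate 3 the bioB 3′ probe set was lowest and the other 8 were not, with cre at 12.86, 12.96 and 13.02 and bioD at 10.86, 10.95 and 11.07 over the gland replicates. The median of all Anopheles probe sets was 5.84, 5.85 and 5.82 in gland and 5.91, 5.88 and 5.82 in whole larvae. The 3′ minus 5′ difference of the actin controls, a common measure of RNA quality, was 1.03, 1.16 and 0.91 in gland and 1.35, 1.64 and 1.40 in whole larvae, and that of Gapdh was 0.78, 0.64 and 0.91 and then 0.87, 0.83 and 0.95. The part of these in the members' pattern was not tested.

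**Figure D4:**
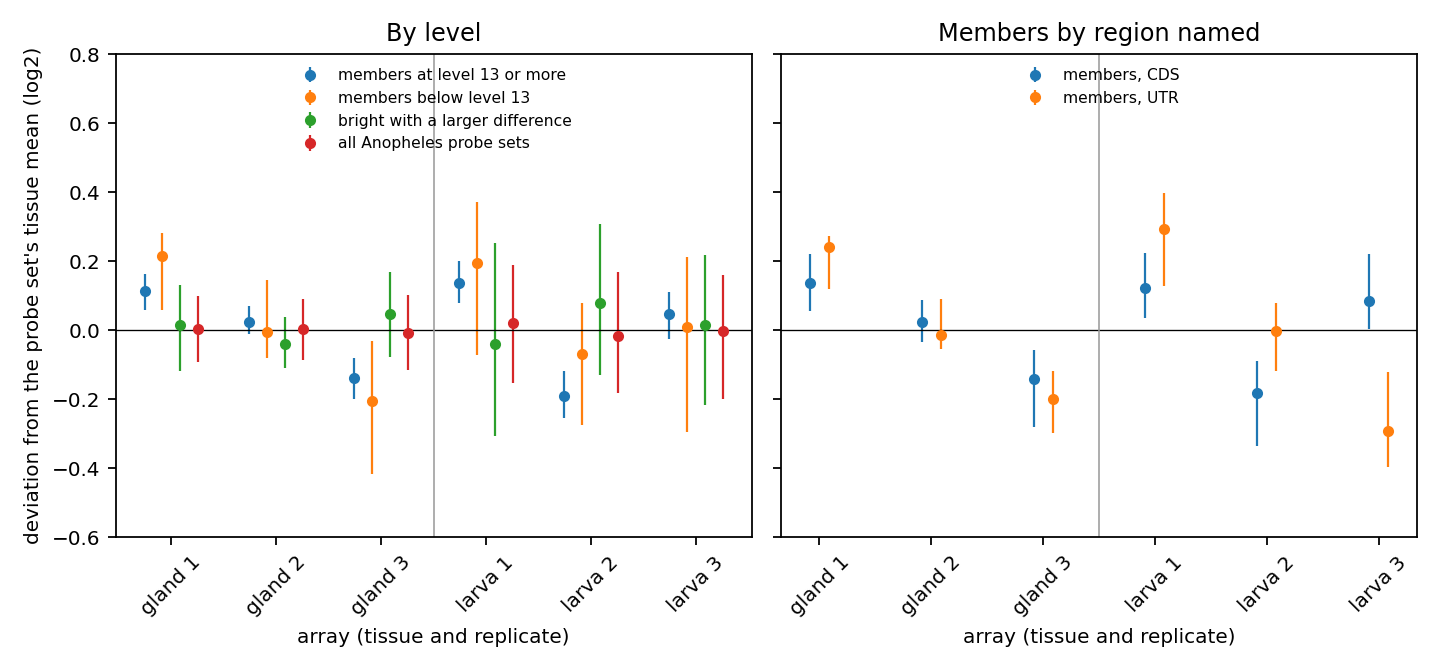
Deviation of each probe set from its own tissue mean (log2) on each array, as medians (points) with quartiles (bars), by level (left) and by region named in the identifier (right). Members dip on gland replicate 3, and on whole-larva replicate 2 for CDS but on replicate 3 for UTR.

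Coding and untranslated probe sets parted in the whole larva. Of the 218 members 138 named the CDS, 48 the UTR and 32 neither. The UTR share was 22.0% of members and 20.2% of the other bright probe sets, against 4.68% of all Anopheles probe sets. In whole larvae the CDS members were lowest on replicate 2 (78.3%) and for 6.52% on replicate 3, whereas the UTR members were lowest on replicate 3 (70.8%) and for 20.8% on replicate 2. Of the 34 UTR members lowest on replicate 3, 19 carried the numbers 2R.6 and 2R.19, and 18 of these were near-copies of each other. Outside these numbers 15 of 29 UTR members (51.7%) were lowest on replicate 3 and 34.5% on replicate 2. Among all 790 Anopheles UTR probe sets 63.2% were lowest on whole-larva replicate 3 and 14.7% on replicate 2. Among all 14060 Anopheles CDS probe sets 31.1% were lowest on replicate 3 and 37.5% on replicate 2. In gland both kinds of member were lowest on replicate 3, 76.1% of CDS and 83.3% of UTR, against 39.1% and 37.2% over all Anopheles probe sets. By the group means, which the rule used, 40 of 48 UTR members (83.3%) and 62 of 138 CDS members (44.9%) were the brighter in gland. Over all Anopheles probe sets these shares were 44.2% for UTR and 58.7% for CDS, and among UTR members without the numbers 2R.6 and 2R.19 it was 22 of 29.

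For 9 transcripts the CDS and the UTR probe set were both members. Their mean levels were closest for 2L.150.0, at 14.00 for both, and 2R.285.0, at 13.09 and 13.12, and farthest apart for 3R.165.0, by 3.06. Its CDS probe set, Ag.3R.165.0_CDS_a_at, measured 12.19, 11.67 and 10.33 in gland and 12.00, 10.82 and 11.26 in whole larvae, a pooled SD of 0.801 where that of its UTR probe set was 0.187. The UTR probe set was the steadier one in 7 of the 9 transcripts and the brighter one in 4. Levels of different probe sets are on different probe scales, so that these gaps are not ratios of RNA.

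Members were not 218 separate genes. They carried 172 different numbers, of which 24 had more than 1 member, 70 members in all. The largest such groups were 10 UTR probe sets of number 2R.6 and 9 of number 2R.19. Of these 19, 18 carry the suffix _s_at, which marks probes shared between transcripts, and these 18 were close to copies of each other. Their values ran from 12.10 to 12.35, 11.78 to 12.03 and 11.67 to 11.95 on the gland arrays and from 11.94 to 12.36, 11.67 to 11.99 and 11.24 to 11.63 on the whole-larva arrays. The lowest correlation between any pair of them over the 6 arrays was 0.82. They may report 1 transcript or several with shared sequence, which the files do not settle. The other 2 probe sets of these numbers, Ag.2R.6.0_CDS_s_at at -0.61 and Ag.2R.6.0_CDS_x_at at -0.65 (gland minus whole larva), were bright but past the difference limit.

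Suffixes of members also differed from the rest of the array. The suffix _s_at stood on 72 members (33.0%), against 8.14% of all Anopheles probe sets and 18.3% of the other bright ones. The suffix _a_at, for probes shared by variants of 1 gene, stood on 90 (41.3%), against 19.7% and 34.6%. Much of the excess of _a_at was thus shared with the other bright probe sets. The plain suffix _at stood on 54 (24.8%), against 72.1% of all Anopheles probe sets and 45.2% of the other bright ones. Without _s_at and _x_at, 144 members remained. A further 33 probe sets carried a placed member's number without being members. Of these 24 were below 10 in a tissue. The other 9 were bright in both tissues, so by the rule they had to differ by 0.5 or more. Of all 33, 15 (45.5%) differed by less than 0.5, against 67.4% of all Anopheles probe sets. The choice of non-members set part of this gap, so it is not a result about these probe sets.

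By arm, 81 members (37.2%) lay on 2R, 44 on 2L, 38 on 3R, 34 on 3L, 12 on X and 9 on no placed arm. On 2R members made up 1.82% of probe sets, and 1.40% of those outside the numbers 2R.6 and 2R.19. On X they made up 0.855% and in the unplaced class 0.464%. Members sat in narrow windows of identifier number. Of the 209 placed ones 181 (86.6%) had a number of at most 350, against 15.1% of all placed probe sets and 60.4% of the other bright ones. On 2R the numbers 251 to 300 held 27 members among 72 probe sets and the numbers 51 to 250 held 0 among 213. On 3R 26 of the 38 members had numbers from 151 to 200, on 3L 21 of 34 from 101 to 150, on 2L 17 of 44 from 151 to 200 and on X 10 of 12 from 51 to 100. Of the 163 different placed numbers 73 (44.8%) had a neighbouring number among the members, against 15.6% of the 90 numbers of the other bright probe sets. This share rises with the size of a set and the crowding of its numbers, and was 95.2% over all 13041 placed numbers. The 2 bright sets differ in both, so their shares are not directly comparable. The sources used here do not say what the order of the numbers stands for, and neighbouring numbers may share a gene or sequence.

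**Figure D5:**
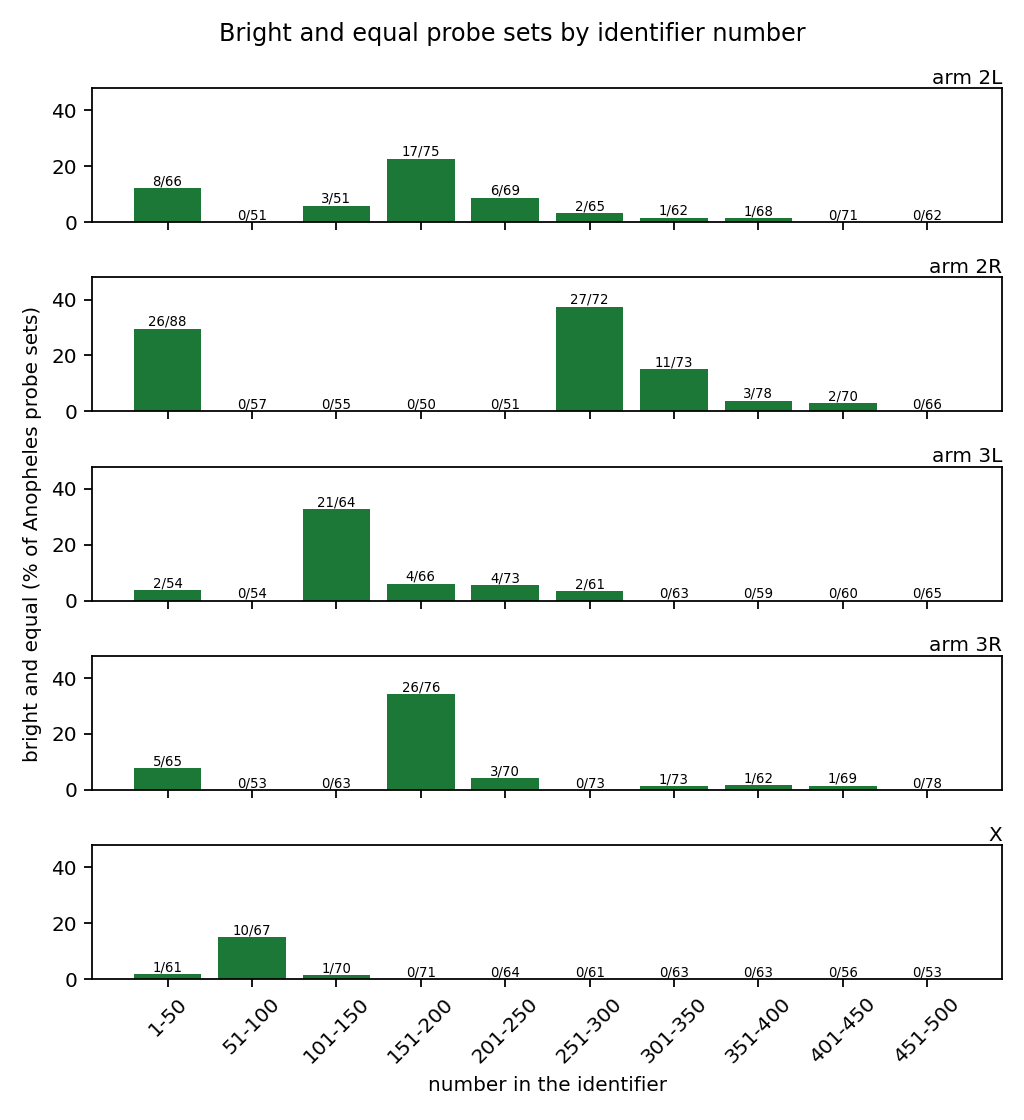
Share of Anopheles probe sets that were bright and equal (vertical axis, percent) in blocks of 50 identifier numbers, for 5 chromosome arms, with members over probe sets above each bar. Each arm has 1 or 2 tall blocks, such as 27 of 72 for 251 to 300 on 2R.

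Much of all Anopheles signal came from the 218 members in both tissues. Summed after taking the antilog, their share of it was 40.9%, 38.9% and 34.2% on the gland arrays, or 38.0% ± 3.46 (SD, n = 3), and 38.3%, 30.9% and 35.8% on the whole-larva arrays, or 35.0% ± 3.79 (SD, n = 3). The tissues overlapped. The lowest share in each was on the array where members were low, which is no separate observation, since the share sums the same values. The 96 top members alone gave 28.9% ± 2.35 of gland signal and 26.6% ± 3.12 of whole-larva signal, and the 122 lower ones 9.11% ± 1.12 and 8.38% ± 0.720 (each SD with n = 3). For the other 104 bright probe sets these shares were 13.1% ± 0.985 and 8.18% ± 0.832 (each SD with n = 3). The 170 probe sets bright in gland alone held 12.5% of the gland signal and 2.02% of the whole-larva signal, and the 288 bright in whole larvae alone held 2.30% and 18.3%. Signal in arrays is not a count of molecules, and a probe set's share depends on its probes. Without _s_at and _x_at probe sets the members' share was 32.3% in gland and 30.4% in whole larvae.

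Arrays that took no part in the choice gave a check of the rule. Members were chosen again on 2 gland and 2 whole-larva arrays, and the difference was then read between the gland array and the whole-larva array left out, in all 9 combinations. Of the 180 to 217 probe sets chosen, 63.4% to 85.8% (median 70.2%) differed by less than 0.5 on the left-out pair, and 87.8% to 97.5% by less than 2-fold. Of the bright probe sets that the same arrays had not chosen, 16.2% to 37.2% differed by less than 0.5, and of all Anopheles probe sets 57.1% to 65.0% did. Each of these differences rests on 1 array per tissue, against 3 per tissue in the rule. The median difference of the chosen probe sets on the left-out pair ran from -0.30 (gland replicate 3 and whole-larva replicate 1) to 0.37 (gland replicate 1 and whole-larva replicate 2).

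Of the array's own reference probe sets, 2 of 3 for actin would have met the members' limits and 0 of 3 for Gapdh. Actin, the protein of the thin filaments of the cytoskeleton and of muscle, and Gapdh, an enzyme of glycolysis, each have a 3′, a middle and a 5′ control probe set. The middle actin probe set measured 11.91, 11.94 and 11.87 in gland and 12.11, 12.46 and 11.66 in whole larvae, and the 5′ one 10.63, 10.67 and 10.77 and then 11.29, 11.11 and 10.63. These are the ones inside the limits, with differences of -0.17 (95% interval -0.74 to 0.40) and -0.32 (-0.86 to 0.23). Both differences turned positive after repeated quantile normalization (0.053 and 0.098), and that of the middle probe set also without whole-larva replicate 2 (0.024). The 3′ actin probe set did not, at 11.67, 11.83 and 11.69 in gland and 12.64, 12.75 and 12.03 in whole larvae. Its groups did not overlap, and its difference of -0.75 (95% interval -1.31 to -0.18) missed the threshold with a limma adjusted p of 0.0790 over all rows, but passed it without whole-larva replicate 3 (0.0279).

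None of the Gapdh probe sets met the limits. The middle one measured 11.11, 10.99 and 10.94 in gland and 12.23, 13.14 and 13.13 in whole larvae. Every whole-larva value lay above every gland value, by 1.82 on average (standard error 0.285, limma adjusted p = 0.00465 over all 22761 rows, of which 15.3% were called at 0.05). The 3′ probe set (10.88, 10.53 and 11.08, then 11.75, 12.61 and 12.13) and the 5′ probe set (10.10, 9.89 and 10.17, then 10.89, 11.78 and 11.19) were also higher in whole larvae on every array, with limma adjusted p of 0.0172 and 0.0205. These p missed 0.05 without gland replicate 1 (0.0645 and 0.0742) or 2 (0.0934 and 0.105), and for the 5′ probe set without gland replicate 3 (0.0634). By the equal-variance test that the series' design names, on the same log2 values of 3 arrays a tissue, none of the 3 passed after Benjamini-Hochberg adjustment over all rows, with 0.0553 for the middle, 0.0878 for the 3′ and 0.0889 for the 5′ probe set. The AFFX-r2 probe sets of the bioC spike moved the same way as Gapdh. Their 3′ probe set measured 7.58, 7.76 and 7.64 in gland and 8.72, 8.66 and 9.92 in whole larvae, a difference of -1.44 (limma adjusted p = 0.0272), and their 5′ probe set differed by -1.65 (limma adjusted p = 0.0228). The AFFX-r2 probe sets of bioB differed by -0.23 to -0.67 with limma adjusted p of 0.138 to 0.688, and those of bioD and cre by -0.08 to 0.01, none past 0.05. The part of these in the Gapdh difference was not tested.

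Gapdh was also set against actin within each array, where a log2 shift shared by all probe sets of the array cancels. An adjustment that depends on level need not cancel. The change between tissues can be read in this way, but not which of the controls had more RNA. The mean of the 3 Gapdh minus the mean of the 3 actin probe sets was -0.71, -1.01 and -0.71 in gland and -0.39, 0.41 and 0.71 in whole larvae. The groups did not overlap, with means of -0.81 ± 0.18 and 0.24 ± 0.57 (each SD with n = 3). The exact permutation test, two-sided, gave p = 0.1, and no smaller p is possible with 3 arrays against 3. Against the median of the members, Gapdh lay at -2.08, -2.21 and -1.69 in gland and -1.11, 0.15 and -0.49 in whole larvae, and actin at -1.38, -1.20 and -0.98 and then -0.72, -0.25 and -1.20. On whole-larva replicate 2, the members' low array, all 3 Gapdh probe sets had their highest value.

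The count of members steadier than a control depended on level. The pooled within-tissue SD was 0.281, 0.288 and 0.245 for the 3′, middle and 5′ actin probe sets, and 126, 130 and 101 of the 218 members were below them. For the 3′, middle and 5′ Gapdh probe sets it was 0.363, 0.375 and 0.338, with 164, 171 and 156 members below. Among members within 0.5 log2 units of the control in level, a window chosen after the values were seen, the steadier ones were 14 of 41, 17 of 42 and 9 of 52 for the 3′, middle and 5′ actin probe sets, and 33 of 47, 35 of 44 and 20 of 52 for those of Gapdh. The median SD of the 122 members below level 13 was 0.327, above that of each actin probe set. For single controls the tissues also gave different counts. In gland the middle actin probe set had an SD of 0.0372 and 11 members were steadier, whereas in whole larvae its SD was 0.405 and 165 members were steadier. For the 3′ Gapdh probe set 158 members were steadier in gland and 172 in whole larvae, and for the other 4 controls the counts were 25 to 85 in gland and 141 to 198 in whole larvae. The median of the members itself had an SD of 0.183 over the gland arrays and 0.193 over the whole-larva arrays, where the mean of the 3 actin probe sets had 0.0408 and 0.361 and that of Gapdh 0.141 and 0.446 (n = 3 each).

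Centring each array on a reference subtracts the reference's own tissue difference, and its variation between replicates, from every probe set. As deposited, 403 Anopheles probe sets were called higher in gland and 843 lower, by limma at an adjusted p under 0.01 and 2-fold. With each array centred on the median of the members these were 275 and 861. That median differed by only 0.05 between the tissues, as the members had been chosen as equal. It also varied between replicates, with an SD of 0.183 in gland and 0.193 in whole larvae. The part of either in the changed counts was not tested. Centred on the mean of the 3 actin probe sets, which differed by -0.41 between the tissues, they were 1070 and 737. Centred on that of the 3 Gapdh probe sets, which differed by -1.46, they were 13602 and 468.

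Outside the Anopheles and actin rows, 8 other rows met the members' limits, all of them Affymetrix controls and 7 of them bioD and cre spikes. These spikes come from no mosquito RNA. The bioB and bioC spikes did not meet them. Of the 4502 Plasmodium and 290 numeric identifiers, 0 met them.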

How the data were processed

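The deposited table holds log2 values for 22761 probe sets on 6 arrays, made by the authors with RMA per the submitters' processing notes. Its steps normally include background correction, quantile normalization and a summary per probe set, so the arrays are adjusted to each other before any comparison. The summed Anopheles signal, after taking the antilog, was still lower on every gland array than on every whole-larva array. The sources used here state neither the version nor the settings of RMA. The scale was read from the values, 2.46 to 14.9. No pair of arrays was identical (0 pairs). No scan date or batch is stated in these sources.

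The rule was applied to the deposited values. Differences, intervals and controls came from limma 3.58.1 in R 4.3.3 (lmFit, eBayes with trend, tissue as the only term), over the Anopheles rows for members and over all rows for controls, with Benjamini-Hochberg adjustment. The fit was tested on simulated data. Spread is the square root of the mean of both tissues' variances. Named members were the 10 with the smallest SD over 6 arrays, the 5 brightest, the 5 with the largest pooled SD, those nearest each limit, and all actin and Gapdh controls. Probe sets 2R.6, 2R.19 and the CDS and UTR pairs were chosen after their values were seen. Members, lists and tests were chosen with earlier results of these data known. Lists of named gene classes were not tested, as 0 members matched a gene. The replicate numbers of the titles were not used as pairs. Alternatives are given in the closing section. Figures were drawn with matplotlib 3.10.9.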

Additional observations from a re-analysis of the deposited data

How the results depend on the processing

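The number of members was 256 and 190 with the level limit lowered and raised by 0.5, 161 and 246 with difference limits of 0.3 and 0.7, 209 after repeated quantile normalization (178 of them shared), 199 by medians, 203 to 218 with 1 array left out and 172 with 1 probe set per number. Without _s_at and _x_at it was 144, and the share of signal was 32.3% in gland and 30.4% in whole larvae. The other alternatives run for the share moved it by less than 1 SD. Actin at 5′ and in the middle reversed after repeated quantile normalization (0.10 and 0.053), and the middle one without whole-larva replicate 2 (0.024). Its range without 1 array was -0.38 to 0.024, and that of the 5′ one -0.50 to -0.18. Actin at 3′ ranged from -0.97 to -0.61 and passed 0.05 without whole-larva replicate 3. Gapdh missed 0.05 by the equal-variance test that the series' design names, with adjustment (-1.34 at 3′, -1.82 in the middle, -1.23 at 5′; adjusted p = 0.0878, 0.0553 and 0.0889), and at 5′ after repeated quantile normalization (-0.82, limma adjusted p = 0.0589). Without 1 array it ranged from -1.54 to -1.11 at 3′, -2.12 to -1.67 in the middle and -1.43 to -0.99 at 5′. Calls over all Anopheles probe sets became 1070 higher after centring on actin and 13602 higher and 468 lower after centring on Gapdh. Deviations of same-numbered arrays had correlations of 0.10, -0.087 and -0.0022. These are taken across probe sets, which share arrays, so they cannot settle whether the arrays were prepared in pairs. With the replicate number as a block 253 were higher and 698 lower, and all 3 Gapdh probe sets stayed under 0.05 (largest limma adjusted p = 0.0427). The share within the limit on left-out arrays ran from 63.4% to 85.8%. Settings for which arrays were lowest, for intervals and for Gapdh minus actin were added after the data were seen. The share of members lowest on gland replicate 3 was 76.1% to 79.4%, and on whole-larva replicate 2 53.7% to 66.9%, lowest after repeated quantile normalization. Intervals within 2-fold numbered 138 to 186. The cause was not tested for any of these changes. With 3 arrays a tissue and no detection calls, the standard error of a member's difference (median 0.220) limits how small a difference can be seen.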
